A study of Mus musculus with 6 samples.

Results

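The 8 genes described here, *Sfrp1*, *Sfrp2*, *Sfrp4*, *Sfrp5*, *Dkk1*, *Dkk2*, *Dkk3* and *Wif1*, encode secreted antagonists of WNT signaling. They were chosen by name from the 37755 entries of the deposited expression table, each by the entry that carries its symbol, and every symbol had 1 entry. The table compares 3 primary cultures of mammary epithelium (MEC) with 3 tumor cell lines (MEKO, lines 199, 233 and 336), 1 RNA-seq library each, all from C57/Bl6J mice. MEC came from *Wap-Cre+/-* virgin females aged 10 to 12 weeks with wild-type *Mapk8* and *Mapk9*, pooled from 3 to 5 mice, and were cultured on collagen I with serum, EGF and insulin. MEKO lines came from mammary tumors of parous *Wap-Cre+/-* mice that were *Mapk8 LoxP/LoxP* and *Mapk9 LoxP/LoxP*, in which Cre deletes the genes that encode the kinases JNK1 and JNK2, and were passaged 2 times on collagen I before standard dishes in medium with serum and no added EGF or insulin. The age of the tumor-bearing mice was not in the labels. Both groups carry the Cre transgene, whose *Wap* promoter is induced in luminal cells by pregnancy and lactation. Genotype, tumor origin, parity, culture medium and time in culture changed together and cannot be told apart.

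WNT proteins are secreted glycoproteins that bind Frizzled receptors together with the co-receptors LRP5 and LRP6, which leads to stabilization of β-catenin and transcription of its target genes. Secreted frizzled-related proteins (SFRPs) share a cysteine-rich domain with the Frizzled receptors, and SFRPs and WIF1 bind WNT proteins outside the cell. DKK1 and DKK2 instead bind LRP5 and LRP6 and can act together with the Kremen receptors, while DKK3 is a divergent member of the Dickkopf family whose place in WNT signaling is less clear. In the mammary gland, WNT signaling is known for its roles in ductal branching and in the maintenance of basal progenitor cells.

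Of the 8 antagonists, 3 were expressed at lower levels in MEKO lines than in MEC (*Sfrp2*, *Dkk2* and *Dkk3*), and none was called higher. *Sfrp1* was detected in all 6 libraries and differed mainly in line 233, where it was high. *Sfrp4*, *Sfrp5*, *Dkk1* and *Wif1* had a mean under 1 FPKM (fragments scaled by transcript length and by the number of fragments in the library) over the 6 libraries and were not tested. A gene was called with an adjusted p under 0.05 and a log2 fold change beyond 0.75 in limma on log2(FPKM + 1). Of all 12461 tested genes, 7.26% were called lower and 2.64% higher in MEKO, with a median log2 fold change of 0.01. Of the 4 tested antagonists, 3 were called lower, but *Sfrp2* and *Dkk2* passed the expression filter only through their level in MEC, so this count is a description. The log2(FPKM + 1) scale understates the fold change of weakly expressed genes, and in bulk RNA fewer cells of a type and less RNA per cell cannot be told apart.

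**Figure D1:**
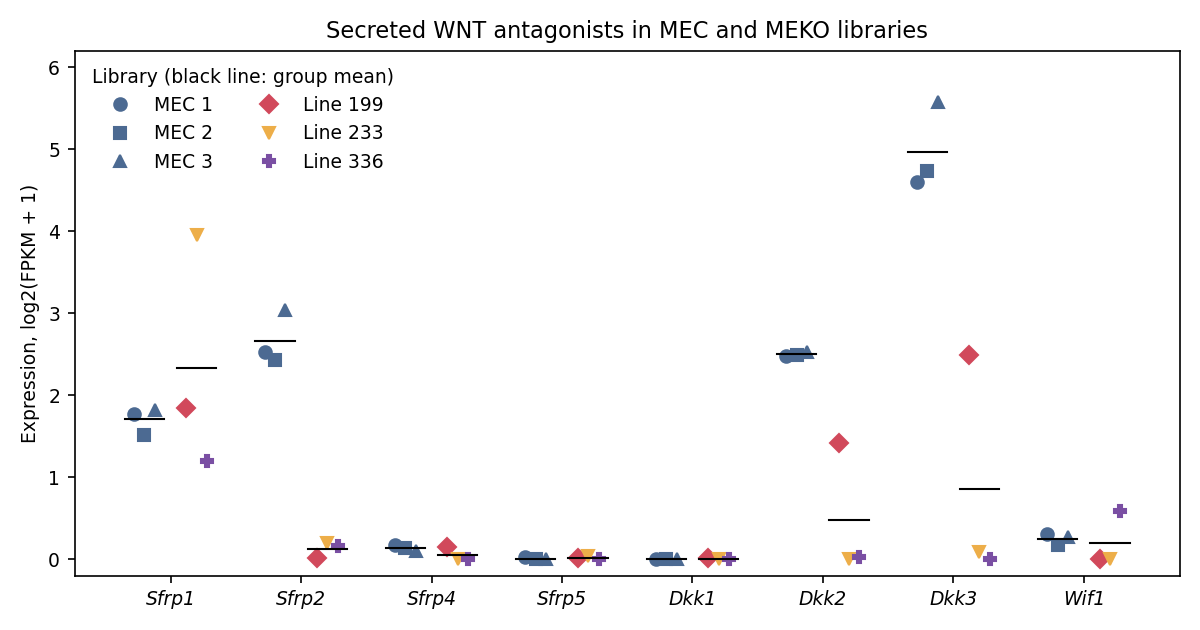
Expression of the 8 secreted WNT antagonists, as log2(FPKM + 1) on the vertical axis, with 1 point for each of 3 MEC preparations and 3 MEKO lines and a black line at each group mean of log2 values. *Sfrp2*, *Dkk2* and *Dkk3* have all 3 MEKO points below all 3 MEC points, and the *Sfrp1* point of line 233 (14.4 FPKM) lies far above the other 5.

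*Sfrp2* encodes an SFRP that is secreted mainly by mesenchymal cells in many tissues. It was at 4.75, 4.37 and 7.19 FPKM in the 3 MEC libraries and at 0.0111, 0.146 and 0.122 FPKM in lines 199, 233 and 336. The MEC mean was 5.44 ± 1.53 FPKM (SD, n = 3) and the MEKO mean was 0.0929 ± 0.0718 FPKM (SD, n = 3), a ratio of 58.5. The groups did not overlap, and no MEKO line kept more than 2.68% of the MEC mean. The log2 fold change was -2.53 with a standard error of 0.25 and an adjusted p of 0.00354 (limma, Benjamini-Hochberg). The gene was called under 12 of 12 alternative settings, with adjusted p-values between 0.00166 and 0.0307. An exact permutation test (two-sided) gave p = 0.1, the smallest that 3 libraries against 3 allow, for *Sfrp2*, *Dkk2* and *Dkk3* alike.

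*Sfrp2* lies on the forward strand of chr3:83766321-83774316 (GRCm38) and overlaps *Gm26771* on the reverse strand. *Gm26771* was at 1.04, 1.12 and 1.25 FPKM in MEC and at 0, 0.0237 and 0.0893 FPKM in lines 199, 233 and 336. Whether reads were counted by strand is not given in the sources used here. Reads from the stretch that the 2 genes share may therefore have been counted for either gene, and its length was not measured.

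*Dkk2* encodes a Dickkopf protein that binds LRP5 and LRP6 and acts as an antagonist or a weak agonist depending on the cell. Its level in MEC was very even, at 4.56, 4.61 and 4.78 FPKM, and it fell to 1.67, 0 and 0.0167 FPKM in lines 199, 233 and 336. Line 199 therefore kept 35.9% of the MEC mean and line 336 kept 0.359%, while the gene was listed at 0 in line 233. The mean was 4.65 ± 0.112 FPKM in MEC and 0.562 ± 0.958 FPKM in MEKO (SD, n = 3 each), with a ratio of 8.28 that rests on line 199. The log2 fold change was -2.02 with a standard error of 0.42 and an adjusted p of 0.0325 (limma, Benjamini-Hochberg). The call was kept under 5 of 12 alternative settings, with adjusted p-values between 0.00196 and 0.129, and with line 199 left out the log2 fold change was -2.49 and the call held.

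Of the 3 called antagonists, *Sfrp2* and *Dkk2* had a promoter sequence in the source used here and *Dkk3* had none. The stretches of 250 bases that precede the start sites of *Sfrp2* (chr3:83766071-83766320, forward strand) and *Dkk2* (chr3:132085042-132085291, forward strand) are shown. They come from RefSeq on GRCm38.p6, are written 5′ to 3′, and carry CpG dinucleotides in capitals, 16 in *Sfrp2* and 7 in *Dkk2*.
Sfrp2: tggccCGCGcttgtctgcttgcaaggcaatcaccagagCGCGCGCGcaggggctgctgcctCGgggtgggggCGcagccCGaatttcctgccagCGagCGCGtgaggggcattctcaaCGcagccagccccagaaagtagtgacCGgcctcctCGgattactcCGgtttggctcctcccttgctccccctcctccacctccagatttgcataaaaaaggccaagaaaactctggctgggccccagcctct
Dkk2: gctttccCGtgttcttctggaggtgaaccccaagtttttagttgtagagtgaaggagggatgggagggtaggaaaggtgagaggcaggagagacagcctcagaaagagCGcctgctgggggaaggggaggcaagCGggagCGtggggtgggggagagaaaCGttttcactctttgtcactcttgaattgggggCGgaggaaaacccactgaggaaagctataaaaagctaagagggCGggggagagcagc
The *Dkk2* stretch holds the letters TATAAA on the forward strand from 32 to 27 bases before the start, and the *Sfrp2* window holds none.

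Windows of 250 bases before to 50 bases after the start were found for 5 of the 8 antagonists, and not for *Sfrp1*, *Sfrp4* and *Dkk3*. Their GC content was 66.0% for *Sfrp2*, 57.67% for *Dkk2*, 61.33% for *Sfrp5*, 60.67% for *Dkk1* and 63.0% for *Wif1*, beside a median of 52.67% over 32851 windows of 27025 genes. The ratio of observed to expected CpG was highest for *Wif1* at 0.8484, followed by *Sfrp2* at 0.6818, *Sfrp5* at 0.6216, *Dkk2* at 0.4991 and *Dkk1* at 0.3267, and the median of all windows was 0.3836. The letters TGANTCA, bound by AP1 and searched on both strands, were in none of the 5 windows and in 7.808% of all windows. CTTTGAT or CTTTGAA, the TCF/LEF letters, matched 1 time in *Dkk1* and in 8.651% of all windows. TATAAA, a motif added after the sequences were seen, was in the windows of *Dkk1*, *Dkk2* and *Wif1* and in 13.62% of all windows. No motif or CpG value separated the called *Sfrp2* and *Dkk2* from the antagonists that were hardly expressed. With 5 windows, and none for the called *Dkk3* or for *Sfrp1*, a separation could hardly have been seen, and such matches are descriptions of letters only.

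*Dkk3* was the most highly expressed antagonist in MEC and had the largest log2 fold change of the 4 tested. It was at 23.2, 25.6 and 46.7 FPKM in MEC and at 4.61, 0.0615 and 0 FPKM in lines 199, 233 and 336. The gene thus remained at 14.5% of the MEC mean in line 199 and at 0.193% in line 233, and it was listed at 0 in line 336. The MEC mean was 31.8 ± 12.9 FPKM and the MEKO mean 1.56 ± 2.64 FPKM (SD, n = 3 each), with a ratio of 20.5 that again rests on line 199. The log2 fold change was -4.11 with a standard error of 0.70 and an adjusted p of 0.0193 (limma, Benjamini-Hochberg). The call was kept under 10 of 13 alternative settings and was lost, at adjusted p-values between 0.0742 and 0.0844, with any 1 MEC library left out. *Dkk3* lies on the reverse strand of chr7:112116017-112159057 and *Dkk2* on the forward strand of chr3:132085292-132180304 (GRCm38), so they are not neighbours.

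*Sfrp1*, the SFRP best known as a gene silenced in breast cancer, did not follow the same pattern. It was at 2.42, 1.87 and 2.54 FPKM in MEC and at 2.60, 14.4 and 1.30 FPKM in lines 199, 233 and 336. The lines thus stood at 114%, 635% and 57.1% of the MEC mean, with line 199 barely above the MEC range, line 233 far above it and line 336 below it. The log2 fold change of 0.63 with a standard error of 0.68 did not pass the test (adjusted p = 0.577, limma, Benjamini-Hochberg), the exact permutation p was 0.7, and the groups overlapped. Without line 233 the log2 fold change was -0.18 with an adjusted p of 0.721. The group mean of 6.12 ± 7.25 FPKM in MEKO (SD, n = 3), beside 2.28 ± 0.359 FPKM in MEC, describes no single line. *Sfrp1* lies on the forward strand of chr8:23411502-23449632.

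The 4 remaining antagonists were near or at the bottom of the measured range. *Wif1*, which encodes a WNT-binding protein with a WIF domain, was at 0.237, 0.127 and 0.205 FPKM in MEC, was listed at 0 in lines 199 and 233, and was at 0.498 FPKM in line 336. Line 336 was thus the one library with *Wif1* above the MEC range, at 262% of the MEC mean (exact permutation p = 1 between the groups). *Sfrp4* was at 0.126, 0.0969 and 0.0754 FPKM in MEC and at 0.108, 0 and 0 FPKM in lines 199, 233 and 336 (exact permutation p = 0.3). *Sfrp5* reached at most 0.0156 FPKM in MEC and 0.0287 FPKM in MEKO (exact permutation p = 0.7). *Dkk1*, the Dickkopf antagonist studied most, was listed at 0 in 5 libraries and at 0.00838 FPKM in line 199. At such values no difference between MEC and MEKO was detectable, which does not show that the levels were alike.

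The order of the antagonists by level differed between the groups, with FPKM used because it is scaled by transcript length. In MEC, *Dkk3* was above every other antagonist in all 3 libraries, *Sfrp2* and *Dkk2* had overlapping ranges below it, and *Sfrp1* was below both. In line 199 *Dkk3* was still the highest, followed by *Sfrp1* and *Dkk2*, whereas in lines 233 and 336 *Sfrp1* was the highest. Among all entries above 0, *Dkk3* ranked 3715, 3440 and 1862 from the top in the MEC libraries, and *Sfrp1* ranked 5343 in line 233 against 10682 to 11223 in MEC.

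Summed over the 8 genes, antagonist expression was 35.3, 36.7 and 61.5 FPKM in MEC and 9.01, 14.7 and 1.94 FPKM in lines 199, 233 and 336. All 3 lines were below all MEC libraries. For line 233 this rests on *Dkk3*, without which its sum lies within the MEC range. The sum in line 233 was nearly all *Sfrp1*, at 98.4%. *Dkk3* made up 65.7% to 75.9% of the sum in MEC, 51.1% in line 199, 0.419% in line 233 and none of it in line 336. In line 336 the small sum was 67.1% *Sfrp1* and 25.7% *Wif1*. The summed level of the 19 WNT ligands was 180, 209 and 182 FPKM in MEC and 121, 320 and 193 FPKM in lines 199, 233 and 336, so that the groups overlapped.

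**Figure D2:**
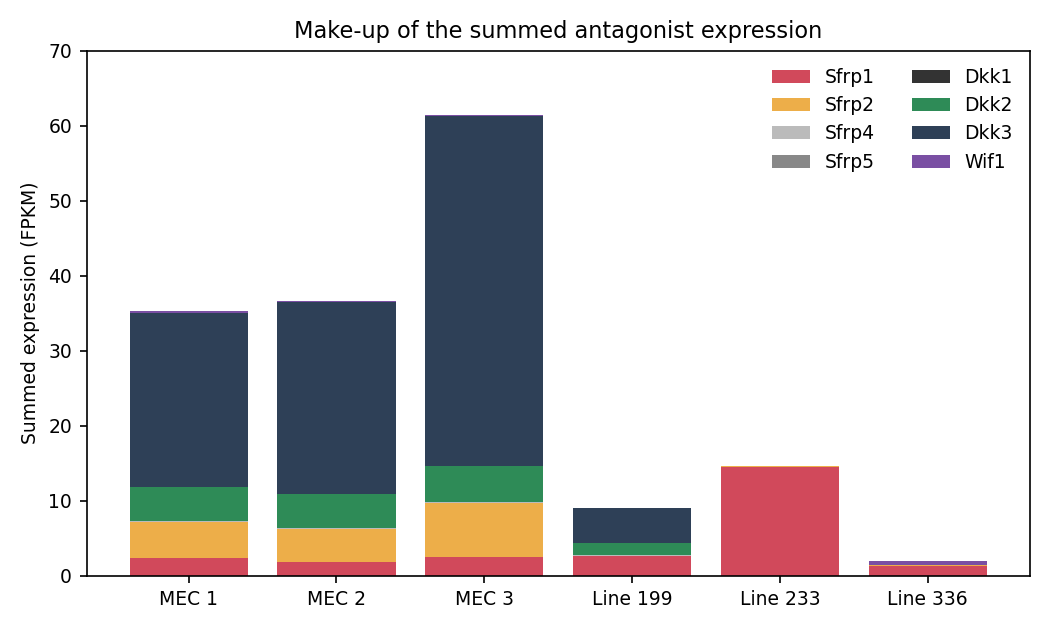
Summed FPKM of the 8 antagonists in each of 3 MEC and 3 MEKO libraries, with 1 colour for each gene in the stacked bars. *Dkk3* forms most of each MEC bar (65.7% to 75.9%), *Sfrp1* forms 98.4% of the bar of line 233, and the bar of line 336 is the lowest at 1.94 FPKM.

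Taken line by line, with no test since each line is 1 library, 3 of the 4 antagonists with a mean of at least 1 FPKM were below the MEC range in line 199, 3 in line 233 and all 4 in line 336. Of all tested genes, 39.1%, 37.9% and 37.4% were below the MEC range in lines 199, 233 and 336. *Sfrp2* and *Dkk2* passed the expression filter only through MEC, so the counts of antagonists are descriptions. Line 199 stood apart from the others by keeping measurable *Dkk2* and *Dkk3* while having the lowest *Sfrp2* of the 6 libraries. Of the 4 tested antagonists, the 3 called ones had every MEKO library below every MEC library, and 18.7% of all tested genes did so. The same limit of the filter holds for this count. Of the 4 others, *Wif1* in lines 199 and 233 and *Sfrp4* in lines 233 and 336 were listed at 0, below MEC values that were themselves under 1 FPKM.

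The lines also differed in the markers of cell types, and these values are given beside the antagonists. The summed level of 6 basal or myoepithelial markers was 2063, 2242 and 1282 FPKM in MEC, 1865 FPKM in line 199, 9.92 FPKM in line 233 and 45.1 FPKM in line 336, and 2 of the 6 tested were called lower. The 9 fibroblast markers summed to 150, 208 and 119 FPKM in MEC, 1111 FPKM in line 199, 2.44 FPKM in line 233 and 4.23 FPKM in line 336, with 2 of the 9 listed at 0 in each of lines 233 and 336 and 1 of 6 tested called lower. Within these lists line 199 was mixed. Of the basal or myoepithelial markers, *Krt5*, *Krt14* and *Trp63* were above the MEC range in line 199, at 187%, 137% and 157% of the MEC mean, while *Acta2*, *Myh11* and *Oxtr* were below it, at 65.2%, 0.251% and 0.105%. Of the fibroblast markers, 5 were above the MEC range and 4 below it in that line, and the sum there was mostly *Col1a1* at 600 FPKM and *Col1a2* at 408 FPKM, whereas *Dcn* and *Lum* were at 6.06% and 2.73% of the MEC mean. In lines 233 and 336 all 6 markers of the one list and all 9 of the other were below the MEC range. The 5 luminal markers summed to between 5308 and 8869 FPKM in MEC and between 789 and 1962 FPKM in MEKO, with none at 0 and 4 of 5 called lower. Endothelial markers summed to between 1.67 and 13.9 FPKM in MEC and at most 0.43 FPKM in MEKO, adipocyte markers to between 1.28 and 11.7 FPKM in MEC and at most 1.17 FPKM in MEKO, and leukocyte markers (3 of 4 in the table) to between 3.69 and 6.91 FPKM in MEC and 0.779, 2.75 and 23.5 FPKM in lines 199, 233 and 336. The value of line 336 was *Cd68* alone, with *Ptprc* and *Cd3e* listed at 0 there, and *Ptprc* was below the MEC range in every line. None of these 3 lists held a called gene, but only 2 of 4 endothelial, 1 of 3 adipocyte and 1 of 3 leukocyte markers in the table were tested. The others had a mean under 1 FPKM and could not be called. Beside the marker counts, 7.26% of all tested genes were called lower. The called basal or myoepithelial markers *Myh11* and *Oxtr* and the called fibroblast marker *Dcn* passed the expression filter only through MEC, so these counts are descriptions. The part of other cell types in the antagonist levels was not tested.

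*Mapk8* and *Mapk9*, the deleted genes, were both called lower, with *Mapk8* at 19.2 to 25.1 FPKM in MEC and 1.37 to 5.93 FPKM in MEKO and *Mapk9* at 21.5 to 24.4 FPKM in MEC and 3.07 to 7.62 FPKM in MEKO, and line 199 was the highest MEKO line for each. Library sums ranged from 557991 to 638365 FPKM, and 17343 to 18741 entries were above 0. Read numbers were not given, and from small values 1 fragment was worth between 0.77 and 1.09 times its FPKM in MEC 1.

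Leaving out each library in turn showed which values rest on 1 library. The log2 fold change of *Sfrp2* stayed between -2.65 and -2.35 and was called each time. That of *Dkk3* stayed between -4.93 and -3.68, and that of *Dkk2* between -2.49 and -1.78, with the call of *Dkk2* kept only without line 199. *Sfrp1* moved between -0.18 and 1.19 and was never called. With a MEC library left out, the number of genes called in all dropped from 1234 to between 259 and 477, and *Sfrp2* was the one antagonist called in each of these fits.

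**Figure D3:**
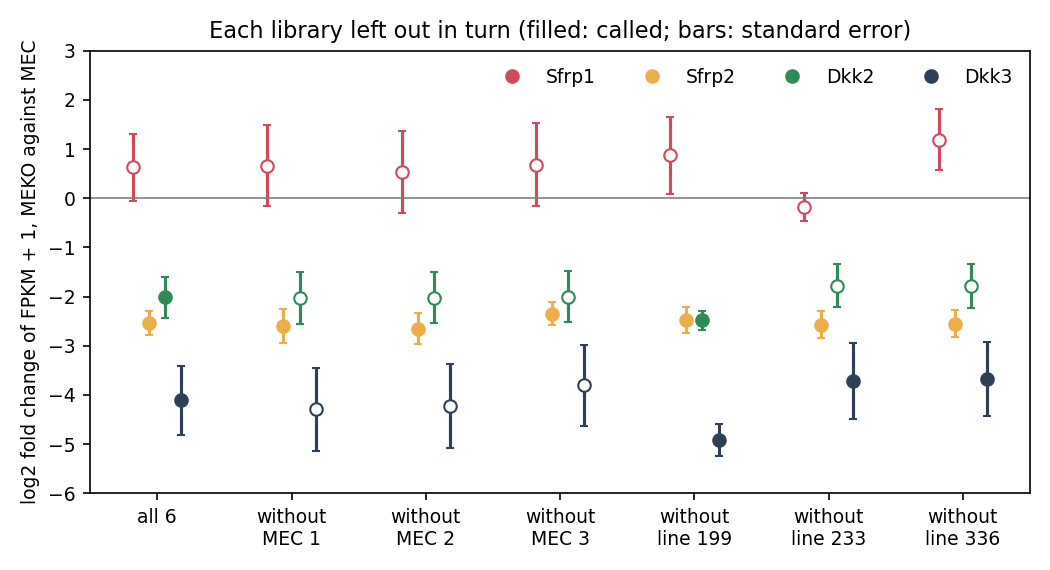
Fitted log2 fold change of FPKM + 1 (MEKO against MEC, vertical axis) of the 4 tested antagonists with all 6 libraries and with each library left out, where bars are standard errors and filled points passed the call. *Sfrp2* is filled in every fit, *Dkk2* only with all 6 libraries and without line 199, and *Sfrp1* drops below 0 without line 233.

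Each tested antagonist was set beside the tested genes with the most similar profile, measured as the root mean square difference of centred log2(FPKM + 1) over the 6 libraries. The genes nearest to *Sfrp2* were *Slc5a7*, the choline transporter, at 0.0906, *Sorbs3* at 0.105 and *Fam115c* at 0.124. *Slc5a7* was at 4.47, 4.69 and 7.48 FPKM in MEC and at 0.0301 FPKM or less in MEKO, nearly the values of *Sfrp2*. *Dkk2* was nearest to *Tmem47* at 0.129, *Creb5* at 0.131 and *Kalrn* at 0.143, all of which were higher in line 199 than in lines 233 and 336. *Sfrp1* was nearest to *Gstm2* at 0.168, *Gna15* at 0.202 and *Ano3* at 0.216, all highest in line 233. *Dkk3* had no close match, with *Mcam* at 0.419, *Trp53i11* at 0.425 and *Fam132a* at 0.431.

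Among the antagonists themselves, *Sfrp2* and *Dkk2* were the most alike at 0.609, while the distance was 1.14 between *Dkk2* and *Dkk3* and 1.18 between *Sfrp2* and *Dkk3*. *Sfrp1* was farthest from *Dkk3* at 2.72. With 6 libraries and a shared group difference, such distances describe profiles only.

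The genes that flank each antagonist are given as a description. A called gene was picked by its large change, so its value is not compared with the median of its neighbours. Over 5 tested neighbours on each side, the median log2 fold change was -0.38 around *Sfrp2*, -0.25 around *Dkk2*, -0.28 around *Dkk3* and -0.24 around *Sfrp1*. Of 10 neighbours each, 2, 1, 2 and 1 were called lower and none higher, beside 7.26% and 2.64% of all tested genes. For the neighbours of *Sfrp1*, the median log2 difference from the MEC mean was -0.50, 0.12 and -0.33 in lines 199, 233 and 336. Around the untested *Sfrp4*, *Sfrp5*, *Dkk1* and *Wif1* the medians were 0.10, 0.11, 0.09 and 0.21. Of 10 neighbours each, 2, 1, 0 and 1 were called lower and 0, 2, 0 and 2 higher, beside the same shares of all tested genes.

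Other extracellular inhibitors of WNT signaling formed the list closest in role to the antagonists, with 6 of 11 tested. Of these, 4 were called lower and none higher, beside 7.26% and 2.64% of all tested genes. Their median log2 fold change was -1.46 beside 0.01 for all tested genes. *Apcdd1*, named after its values were seen, was not called, at 237%, 7.89% and 1120% of the MEC mean in lines 199, 233 and 336. *Dkkl1*, which encodes a protein related to the Dickkopf family, was at 3.64, 7.07 and 3.32 FPKM in MEC and 0.175, 0.18 and 0.522 FPKM in lines 199, 233 and 336, with a log2 fold change of -2.09 (adjusted p = 0.0133, limma, Benjamini-Hochberg). *Sostdc1*, an antagonist of both BMP and WNT signaling, was at 5.20, 2.98 and 7.14 FPKM in MEC and 0.239, 0 and 1.23 FPKM in the lines, with a log2 fold change of -2.06 (adjusted p = 0.0292, limma). Both passed the expression filter only through MEC. *Igfbp4* fell by 2.50 (adjusted p = 0.0494, limma) and *Tpbg* by 0.86 (adjusted p = 0.0344, limma) on the log2 scale, the former from at least 50.2 FPKM in every MEC library to 2.95, 16.5 and 17.7 FPKM in the lines. Under the alternative settings *Dkkl1* was called in 10 of 12, *Tpbg* in 8 of 13, *Sostdc1* in 5 of 12 and *Igfbp4* in 4 of 13.

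*Notum*, named after its values were seen, encodes a secreted enzyme that removes the lipid from WNT proteins and is itself a WNT target. It was at 0, 0 and 0.0228 FPKM in MEC and at 0.255, 13.0 and 9.18 FPKM in lines 199, 233 and 336. Every MEKO line was above every MEC library, but the gene passed the expression filter only through MEKO, so this is a description. The log2 fold change of 2.48 with a standard error of 0.89 was not called (adjusted p = 0.131, limma). *Notum* was called under 2 of 12 alternative settings, with sample weights, whose estimation stopped before it converged, and without line 199. Without line 199, its lowest MEKO line, the log2 fold change was 3.57 (adjusted p = 0.0014, limma).

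**Figure D4:**
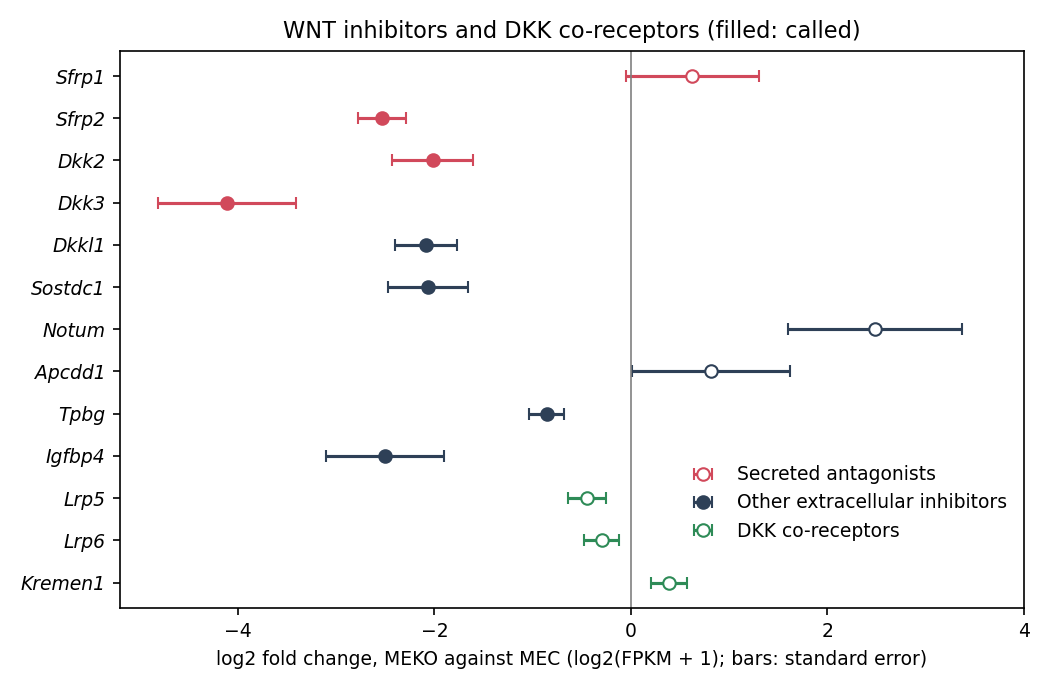
Log2 fold change of FPKM + 1 (MEKO against MEC, horizontal axis) of the tested secreted antagonists, other extracellular WNT inhibitors and DKK co-receptors, with bars for standard errors and filled points for called genes. In all, 3 antagonists and 4 other inhibitors are filled to the left of 0, *Notum* lies to the right at 2.48 and is open, and no co-receptor is filled.

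The co-receptors through which DKK1 and DKK2 act showed no called difference. *Lrp5* was at 39.7, 42.1 and 36.4 FPKM in MEC and 29.5, 22.4 and 35.4 FPKM in lines 199, 233 and 336 (log2 fold change -0.45, adjusted p = 0.199, limma). *Lrp6* was at 14.0 to 19.0 FPKM in MEC and 11.2 to 14.4 FPKM in MEKO (log2 fold change -0.30, adjusted p = 0.327, limma). *Kremen1*, a DKK receptor, was at 10.2 to 10.4 FPKM in MEC and 10.8 to 15.7 FPKM in MEKO (log2 fold change 0.39, adjusted p = 0.23, limma), and *Kremen2* had a mean under 1 FPKM and was not tested. *Lrp5*, *Lrp6* and *Kremen1* were thus all above 10 FPKM in each MEKO line.

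Among the 10 Frizzled receptors, 8 were tested and 3 were called lower, *Fzd4* at a log2 fold change of -1.55, *Fzd3* at -1.45 and *Fzd5* at -1.25, with a median of -1.35 over those tested and none called higher. *Fzd3* and *Fzd4* passed the expression filter only through MEC, as did the ligand gene *Wnt5b*. Of all tested genes, 7.26% were called lower and 2.64% higher. The other WNT receptors *Ror1*, *Ror2* and *Ryk* were all tested and none was called, with a median of -0.42. Of 19 ligands, 8 were tested, with a median of -0.18. *Wnt5b* (-4.68), *Wnt11* (-4.13) and *Wnt5a* (-2.50), which encode ligands best known for signaling without β-catenin, were called lower and *Wnt10a* (3.93), a ligand of the β-catenin branch, was called higher. Of 10 feedback and target genes of β-catenin, 6 were tested with a median of 0.81, *Myc* was called higher (1.03), and *Tcf7* (-1.06) and *Rnf43* (-1.03), itself an inhibitor that removes Frizzled receptors from the membrane, were called lower. *Axin2* (2.10, adjusted p = 0.0731, limma) and *Ccnd1* (1.53, adjusted p = 0.0586, limma), named after their values were seen, were not called. *Axin2* passed the expression filter only through MEKO. Of the 10, 4 had every MEKO line above every MEC library, *Axin2* and *Ccnd1* among them, and 3 had every line below. The calls of *Myc*, *Rnf43* and *Tcf7* held under 1 of 13, 6 of 12 and 7 of 13 alternative settings, and those of *Fzd3*, *Fzd4* and *Fzd5* under 8 of 12, 10 of 12 and 11 of 13. *Wnt5a* was called in 10 of 13 and lost without any 1 MEC library (adjusted p between 0.0689 and 0.0755, limma), and *Wnt5b*, *Wnt11* and *Wnt10a* were called in 13 of 13.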

How the data were processed

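RNA was sequenced from 3 MEC preparations and 3 MEKO lines, and groups were taken from the sample titles. After trimming (Trimmomatic) and alignment to the mm10 build (Bowtie2, TopHat2 2.0.14), the authors quantified each gene with Cufflinks 2.2.1. The deposited values are FPKM, which the authors scaled by length and sequencing depth. Reads and strand-specific counts were not used here, and the precision of low FPKM values is limited by a depth that is not given. A value of 0 can also be a failed estimate.

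Of 37753 entries with values, 12461 with a mean FPKM of at least 1 were tested with limma 3.58.1 in R 4.3.3 on log2(FPKM + 1) with a mean-variance trend, as MEKO against MEC, and p-values were adjusted by the Benjamini-Hochberg method. The pseudocount was 1. The fit was tested on simulated data that gave both groups the same spread for each gene and changed only genes of higher mean expression than the tested antagonists. The simulation therefore does not cover these antagonists. With an adjusted p under 0.05 and a log2 fold change beyond 0.75, 1234 genes were called and 3509 had an unadjusted p under 0.05. Each library is a separate preparation or line, and no batch or date was given. Single genes were also tested by exact permutation (two-sided). Relative depth was the most frequent ratio to MEC 1 among entries under 0.15 FPKM. Positions came from GENCODE and promoter windows from RefSeq.

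The antagonists and the lists of inhibitors, receptors, ligands, targets and markers were chosen with earlier results of these data known. All 8 antagonists are named, with called genes of the other lists (up to 5 each), the DKK co-receptors, *Mapk8*, *Mapk9* and the 3 tested genes most like each tested antagonist. Alternatives were a pseudocount of 0.1, either no filter or a minimum mean of 5 FPKM, quantile and upper-quartile normalization, no trend, sample weights, no fold threshold, and each library left out.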

Additional observations from a re-analysis of the deposited data

How the results depend on the processing

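No paired analysis was possible because MEC preparations and MEKO lines share no replicate numbers. When single libraries were left out, the number of genes called ranged from 259 to 1966 (1234 with all libraries), of genes called lower from 211 to 1398 and of genes called higher from 48 to 568. The lowest counts came without MEC 1 and the highest without line 199. The number of antagonists called ranged from 1 to 3, with *Sfrp2* alone called without any 1 MEC library. A filter at a mean FPKM of 5 gave 738 genes, 501 of them lower, and 1 antagonist, since *Dkk3* alone passed that filter and the others had no value. Sample weights, whose estimation stopped before it converged, gave 1978 genes, 1378 lower and 600 higher. *Dkk2* was not called with a pseudocount of 0.1 (adjusted p = 0.0718, limma), with no filter (adjusted p = 0.0556, limma), or without any library other than line 199. The log2 fold change reversed for *Sfrp1* without line 233 (range over left-out libraries -0.18 to 1.19), *Apcdd1* without line 336 (-0.054 to 1.64), *Fzd2* without MEC 2 (-0.0030) or line 199 (-0.15 to 0.30), *Ryk* without line 336 (-0.061 to 0.28) and *Ror2* with quantile normalization (0.10), and none of these was called under any setting. *Wnt5b*, *Wnt11*, *Wnt10a* and *Sfrp2* were called under every alternative that gave them a value. The cause of these changes was not tested. FPKM values give no counts, so differences among *Sfrp4*, *Sfrp5*, *Dkk1* and *Wif1* could not be resolved, and 1 library per line allows no test of a single line.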
